A study of Mus musculus with 24 samples.

Results

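The 10 genes described here belong to the macrophage and to the signals that keep it alive, and were followed through kidney injury and repair. They were the rows of the deposited table named Adgre1, Csf1r, Csf1, Il34, Cd68, Aif1, Lyz2, Retnla, Mrc1 and Cd14, and all 10 were found among 40750 genes. The 24 libraries came from male mice of 8 to 10 weeks on a mixed background, all Kim1-GCE+/-; EGFPL10a+/- and all given tamoxifen 6 h before and 24 h after injury. In these mice a tamoxifen-inducible Cre driven from the locus of Kim1 (Havcr1, a gene switched on in injured proximal tubule) starts the expression of a ribosomal protein tagged with green fluorescent protein. RNA pulled down with an antibody against the tag is called bound, and the remainder, which the labels equate with total kidney, is called unbound. Kidneys were taken after sham surgery without clamping, or at day 2, 7 or 14 after 20 min of bilateral renal ischemia and reperfusion, with 3 mice a group, and each number within a group gave a bound and an unbound library, taken here as 1 mouse. The labels do not give the day at which sham kidneys were taken.

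Csf1 and Il34 encode the 2 known ligands of the receptor Csf1r, through which macrophages receive survival and growth signals. Adgre1 (F4/80), Cd68, Aif1 (Iba1) and Lyz2 (lysozyme M) are widely used macrophage and myeloid markers. Mrc1, the mannose receptor, and Retnla, a small secreted resistin-like protein, are classic genes of macrophages stimulated by interleukin 4. Cd14 is a co-receptor for bacterial lipopolysaccharide, abundant on monocytes and also made by other cells. In the kidney, resident macrophages lie around the tubules and are joined by monocytes after ischemia, and tubule cells are a known source of both ligands.

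The values are RPKM, reads scaled by gene length and library size, so levels of different genes can be compared per length. Depth inferred from the spacing of low values was 15720000 to 24650000 reads a library. Rose and fell are used of genes for which limma, fitted to log2(RPKM + 0.5) of all 24 libraries, gave an adjusted p under 0.05 over 13721 tested genes. All 10 members passed the filter on low values. Folds below are on that log2 scale, with the standard error, and 3 libraries stand in each group. Bulk RNA cannot tell more cells of a type from more RNA per cell. Shares of all genes called refer to the adjusted p. Counts at an unadjusted p under 0.05 are given without a share of all genes at that threshold.

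Proximal tubule markers summed to 4200 to 7160 RPKM in sham bound and 4510 to 5380 in sham unbound RNA, and to 822 to 5410 in the bound libraries after injury. Miox alone read up to 5820 RPKM. Between sham bound and sham unbound RNA, 0 of 10 proximal tubule markers were called higher in bound RNA and 6 of 10 lower, with a median log2 difference of -1.26. Of all tested genes, 14.6% were called higher and 12.9% lower there. Podocyte markers summed to 58.4 to 166 RPKM in sham bound and 15.2 to 22.4 in sham unbound RNA. The third day 14 mouse stood apart. Its log2 values correlated at 0.901 (bound) and 0.941 (unbound) with the average of its 2 group mates, against 0.936 to 0.984 for each of the other 22 libraries. Every member was higher in this mouse than in the mean of the other 2, by 1.83 to 18.6 times. Day 14 folds of the members against sham are therefore given with and without it. Comparisons with sham within a fraction share the same 3 sham libraries. Libraries clear of sham were common among all genes. All 3 lay above all 3 sham ones for 16.6%, 24.9% and 15.5% of tested genes in bound RNA at day 2, 7 and 14. In unbound RNA these shares were 31.2%, 30.5% and 28.7%, and 13.3% lay wholly below sham at day 2. Of the 10 members, 5, 9 and 7 lay wholly above sham in bound and 7, 9 and 8 in unbound RNA.

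The promoters of 4 genes are shown because they stand for the patterns described below: Csf1 for a rise at day 2, Lyz2 and Aif1 for the macrophage genes, and Retnla for a rise at day 14. Each stretch holds the 250 bases before the gene's start in RefSeq on GRCm38.p6, 5′ to 3′ on the gene's strand. Capitals mark matches, on either strand, to letters often bound by macrophage or inflammatory factors: GAGGAA (the PU.1 core), a spaced palindrome of TGA with 1 base in the gap (AP-1), a spaced palindrome of TTC with 4 bases in the gap (STAT6), TTGCNNAA (C/EBP) and an NF-kB site. They also mark TATAAA (the TATA box), which is not particular to such factors.
Csf1, chr3:107760470-107760719, minus strand: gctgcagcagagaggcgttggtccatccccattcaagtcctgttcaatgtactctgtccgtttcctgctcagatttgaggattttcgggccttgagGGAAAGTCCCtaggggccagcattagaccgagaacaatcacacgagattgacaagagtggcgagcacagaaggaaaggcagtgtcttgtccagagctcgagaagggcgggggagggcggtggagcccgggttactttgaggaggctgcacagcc
Lyz2, chr10:117282273-117282522, minus strand: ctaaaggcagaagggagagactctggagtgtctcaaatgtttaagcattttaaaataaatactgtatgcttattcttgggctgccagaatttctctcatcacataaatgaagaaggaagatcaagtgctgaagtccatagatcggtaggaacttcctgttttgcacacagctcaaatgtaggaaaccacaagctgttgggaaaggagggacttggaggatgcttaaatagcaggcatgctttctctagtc
Aif1, chr17:35176053-35176302, minus strand: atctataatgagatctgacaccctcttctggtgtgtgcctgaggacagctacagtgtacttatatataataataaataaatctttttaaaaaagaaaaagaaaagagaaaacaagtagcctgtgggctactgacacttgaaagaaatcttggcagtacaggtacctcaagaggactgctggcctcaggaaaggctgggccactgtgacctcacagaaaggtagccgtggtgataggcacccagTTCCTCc
Retnla, chr16:48842359-48842608, plus strand: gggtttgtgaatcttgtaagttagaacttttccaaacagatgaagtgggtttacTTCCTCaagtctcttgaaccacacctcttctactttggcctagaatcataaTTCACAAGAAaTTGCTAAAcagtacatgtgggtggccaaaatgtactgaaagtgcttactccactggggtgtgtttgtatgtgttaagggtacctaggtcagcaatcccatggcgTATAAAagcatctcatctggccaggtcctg
The Csf1 stretch held an NF-kB match starting 154 bases before the start, a motif found in 7.25% of 32851 RefSeq promoters of this length. Aif1 held a PU.1 core match 7 bases before the start (23.3% of promoters hold one), and Lyz2 held none of the 6 motifs. Retnla held a STAT6 match 145 bases before the start (5.85% of promoters), a C/EBP match 134 bases before it (9.56%), a PU.1 core match 196 bases before it, and a TATA box 30 bases before it (12.4%). Its STAT6 and C/EBP matches do not overlap. In the stretches of the other members with an entry, Mrc1 held 3 PU.1 core matches, and Cd68 held 1 of these, 2 AP-1 matches (6.75% of promoters) and 1 C/EBP match. These are matches of letters, not measured binding.

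**Figure D1:**
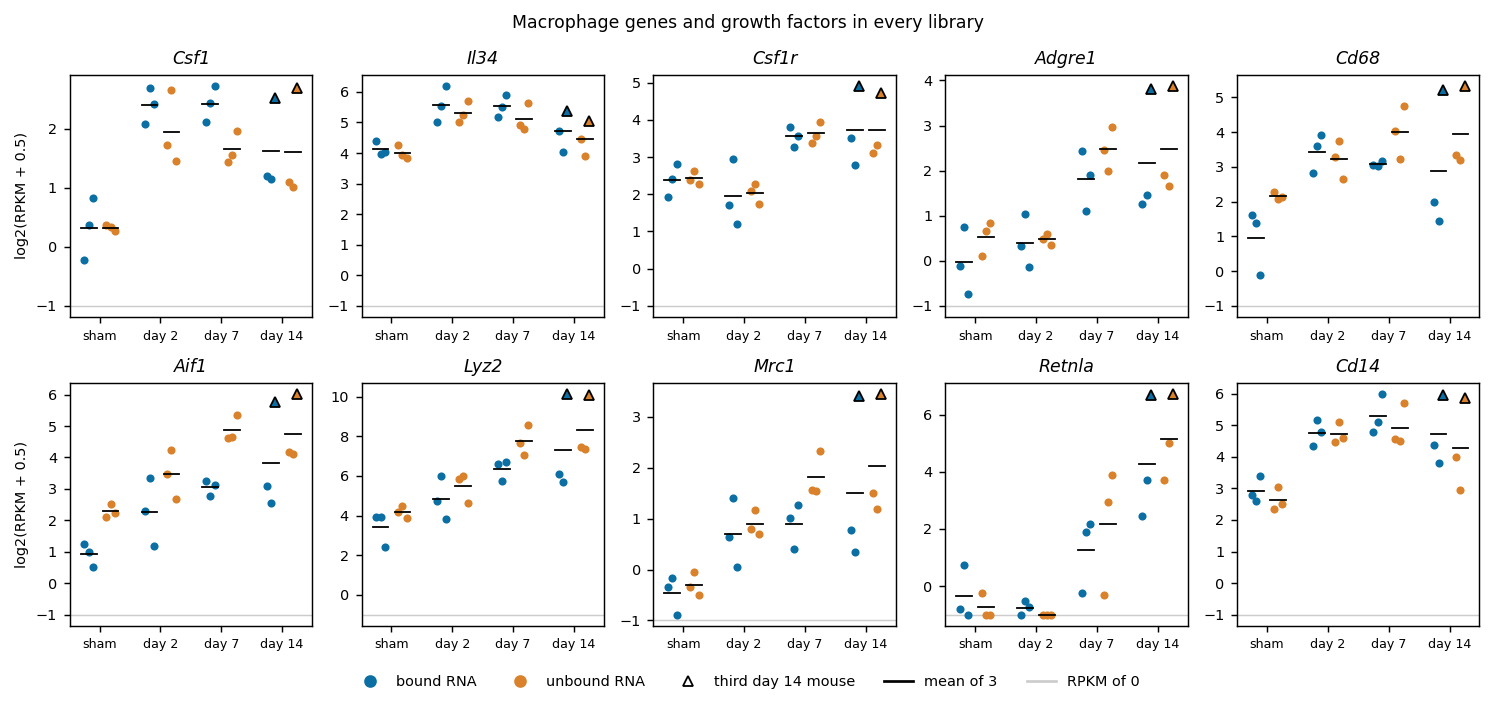
Level of each member in every library, as log2(RPKM + 0.5), by time and fraction, with 3 mice a group, the mean as a black bar and the third day 14 mouse as a triangle. At day 2 all libraries of Csf1, Il34, Cd14, Cd68 and Mrc1 were above sham in both fractions. Those of Aif1 and Lyz2 were so in unbound RNA only, and those of Csf1r, Adgre1 and Retnla in neither. Retnla was highest at day 14.

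Both ligands rose at day 2. Csf1 read 0.356, 0.786 and 1.27 RPKM in the sham bound libraries, 3.73, 5.97 and 4.86 at day 2, 3.82, 4.92 and 6.14 at day 7, and 1.79, 1.72 and 5.22 at day 14. Every injured bound library was above every sham one. Csf1 rose by 2.08 ± 0.42 at day 2 (adjusted p = 0.00174), 2.11 ± 0.42 at day 7 (adjusted p = 0.00182) and 1.30 ± 0.42 at day 14 (adjusted p = 0.0453). The day 14 call was lost without both libraries of the third mouse (0.85, adjusted p = 0.071). It was also lost without 1 of 4 bound libraries, the first or second sham or the first or the third day 14 (adjusted p = 0.0592 to 0.175).

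In unbound RNA Csf1 read 0.787, 0.768 and 0.698 in sham, 2.80, 5.81 and 2.23 at day 2, 2.21, 2.45 and 3.40 at day 7, and 1.65, 1.51 and 5.96 at day 14. Again no injured library overlapped sham. The rise passed the test at day 2 only (1.62 ± 0.42, adjusted p = 0.0127, or 0.101 without the second day 2 library). At day 7 the fold was 1.33 (adjusted p = 0.13) and at day 14 it was 1.28 (adjusted p = 0.111), or 0.73 (adjusted p = 0.379) without the third mouse.

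Il34 was more abundant per length than Csf1 in every group. In bound RNA it read 20.3, 15.3 and 16 RPKM in sham, 31.7, 45.5 and 73.4 at day 2, 35.8, 45 and 59.8 at day 7, and 26.0, 15.8 and 41.1 at day 14, where it overlapped sham. It rose by 1.44 ± 0.35 at day 2 (adjusted p = 0.00672, or 0.0521 without the third day 2 library) and by 1.4 ± 0.35 at day 7 (adjusted p = 0.00773). The day 14 fold was 0.57 (adjusted p = 0.279), and 0.24 (adjusted p = 0.664) without the third mouse.

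Unbound Il34 read 18.8, 14.8 and 13.7 in sham, 31.5, 37.1 and 51.3 at day 2, 30.0, 27.4 and 48.8 at day 7, and 21.6, 14.3 and 32.9 at day 14. It rose by 1.30 ± 0.35 at day 2 (adjusted p = 0.0166). That call was lost without the second or the third sham or the second or the third day 2 library (adjusted p = 0.0516 to 0.0813). The folds of 1.11 at day 7 and 0.46 at day 14 had adjusted p of 0.133 and 0.462. Without the third mouse the day 14 fold was 0.16 (adjusted p = 0.899).

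In the fit used here the receptor was not called against sham at any day. Csf1r read 3.27, 4.77 and 6.48 RPKM in sham bound RNA, 2.80, 7.27 and 1.80 at day 2, 13.6, 9.17 and 11.4 at day 7, and 10.9, 6.39 and 29.8 at day 14. In unbound RNA it read 4.69, 5.67 and 4.38 in sham and 3.75, 4.35 and 2.82 at day 2, where all 3 libraries were under all 3 sham ones, then 9.97, 11.3 and 15.0 at day 7 and 8.06, 9.58 and 25.8 at day 14, all above sham. No comparison of Csf1r with sham passed the test. The bound folds were -0.41 (adjusted p = 0.577), 1.18 (adjusted p = 0.0738) and 1.36 (adjusted p = 0.0575) at day 2, 7 and 14, and the unbound ones -0.40 (adjusted p = 0.6), 1.2 (adjusted p = 0.226) and 1.29 (adjusted p = 0.139). The day 14 folds without the third mouse were 0.77 (adjusted p = 0.156) in bound and 0.79 (adjusted p = 0.432) in unbound RNA. Some alternative fits did call Csf1r. The bound fold was not called in 14 of 16 at day 7 (lowest limma adjusted p = 0.00808) and in 12 of 17 at day 14 (0.012). In unbound RNA it was not called in 14 of 16 at day 7 (0.00477) and in 16 of 17 at day 14 (0.027).

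From day 2 to day 7 Csf1r rose by 1.60 ± 0.47 in bound RNA (adjusted p = 0.0426), the only member called among 10, where 3.56% of all genes were called higher. The call was lost without the first or the third day 2 library or any of the 3 day 7 libraries (adjusted p = 0.0805 to 0.135). In unbound RNA the same step was also 1.60 and had an adjusted p of 0.0644. There limma called 0 members, where 3.51% of all genes were called in either direction, with 5 members at an unadjusted p under 0.05. On the annotation used here, exons of Csf1r share 873 bases with Hmgxb3 on the other strand, and no source used here says whether counting used strand.

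Adgre1 rose at day 7 and day 14 in bound RNA. There it read 0.430, 1.17 and 0.1 in sham, 0.748, 1.54 and 0.404 at day 2, 4.88, 1.65 and 3.25 at day 7, and 1.88, 2.27 and 13.6 at day 14. It rose by 1.85 ± 0.60 at day 7 (adjusted p = 0.0304) and 2.22 ± 0.60 at day 14 (adjusted p = 0.0196, and 1.4 with adjusted p = 0.0254 without the third mouse), while its day 2 libraries overlapped sham (0.43, adjusted p = 0.654). Leaving out the first or the third sham library or the first or the third day 7 library ended the day 7 call (adjusted p = 0.0795 to 0.119), and leaving out the first or the third sham or only the third day 14 bound library ended that of day 14 (adjusted p = 0.055 to 0.0773).

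Unbound Adgre1 read 0.574, 1.07 and 1.30 in sham, 0.888, 1.02 and 0.771 at day 2, 4.96, 3.50 and 7.29 at day 7, and 3.25, 2.64 and 14.3 at day 14. The day 7 and day 14 libraries were all above sham, with folds of 1.94 (adjusted p = 0.119) and 1.95 (adjusted p = 0.093) that did not pass the test. Without the third mouse the day 14 fold was 1.24 (adjusted p = 0.208).

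Cd68, a glycoprotein of the late endosome, was the macrophage marker with a called rise at day 2. Bound libraries read 2.56, 2.09 and 0.419 in sham, 6.55, 11.6 and 14.5 at day 2, 7.77, 7.73 and 8.48 at day 7, and 3.47, 2.23 and 36.8 at day 14. It rose by 2.48 ± 0.71 at day 2 (adjusted p = 0.0181) and 2.13 ± 0.71 at day 7 (adjusted p = 0.0351). The day 2 call was lost without the third sham, second day 2 or the third day 2 library (adjusted p = 0.0667 to 0.0765), and the day 7 call without the second or the third sham or any day 7 library (adjusted p = 0.058 to 0.132). At day 14 the second mouse lay inside the sham range. The fold was 1.93 (adjusted p = 0.0736) with all 3 mice and 0.76 (adjusted p = 0.249) without the third mouse.

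Unbound Cd68 read 4.37, 3.74 and 3.90 in sham, 9.32, 13 and 5.73 at day 2, 16, 8.88 and 26.7 at day 7, and 9.71, 8.61 and 40.1 at day 14. All injured libraries were above sham, and none of the folds of 1.06, 1.84 and 1.79 passed the test (adjusted p = 0.326, 0.22 and 0.169). Without the third mouse the day 14 fold was 1.1 (adjusted p = 0.336).

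Neutrophil markers moved with the day 2 levels. Of 10, 4 were tested and 3 rose in bound and 2 in unbound RNA at day 2, and their summed RPKM was 17.2 to 111 in day 2 bound against 4.08 to 14.2 in sham bound, and 96.3 to 281 in day 2 unbound against 14.9 to 61.4 in sham unbound. Camp was at 0 in 19 and Ly6g in 13 of the 24 libraries. Stromal markers summed to 127 to 641 in day 2 bound against 36.2 to 40.9 RPKM in sham bound, and to 163 to 273 against 31.1 to 36.5 in unbound RNA, with 4 of 8 rising in each fraction. At day 7 and 14, 2 and 4 of them rose in bound and 1 and 3 in unbound RNA, where the sums were 105 to 181 and 98.4 to 534 RPKM. Of all tested genes, 13.3%, 15.2% and 8.71% rose in bound and 9.76%, 0.911% and 0.984% in unbound RNA at day 2, 7 and 14. The part of neutrophils and stromal cells in the levels of the members was not tested.

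Aif1, a calcium-binding protein of macrophages, read 1.88, 1.49 and 0.926 RPKM in sham bound RNA, 4.44, 9.64 and 1.79 at day 2, 9.02, 6.37 and 8.27 at day 7, and 8.04, 5.38 and 54.3 at day 14. It rose by 2.14 ± 0.64 at day 7 (adjusted p = 0.0215) and 2.89 ± 0.64 at day 14 (adjusted p = 0.00782). The day 14 rise passed without the third mouse (1.91, adjusted p = 0.00788), and the day 7 call was lost without the second or the third sham or the first or the third day 7 library (adjusted p = 0.0542 to 0.0636). At day 2 the libraries overlapped sham (1.36, adjusted p = 0.141).

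Unbound Aif1 read 3.85, 5.21 and 4.17 in sham, 10.6, 18.3 and 5.94 at day 2, 24.1, 24.4 and 40.3 at day 7, and 17.4, 16.7 and 63.9 at day 14. Each injured library was above each sham one. The folds were 1.18, 2.58 and 2.47, and none passed (adjusted p = 0.226, 0.0529 and 0.059). Without the third mouse the day 14 fold was 1.85 (adjusted p = 0.0768).

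Lyz2 had the highest RPKM of the members in every day 7 and day 14 library. In bound RNA it read 14.5, 14.6 and 4.8 in sham, 26.4, 63.0 and 13.7 at day 2, 96.5, 52.8 and 104 at day 7, and 68.8, 50.9 and 1112 at day 14. It rose by 2.94 ± 0.87 at day 7 (adjusted p = 0.0202) and 3.90 ± 0.87 at day 14 (adjusted p = 0.00798). The day 14 rise was 2.49 (adjusted p = 0.00567) without the third mouse. The day 7 call was lost without the third sham or the first or the third day 7 library (adjusted p = 0.0597 to 0.0701), and at day 2, when the third library overlapped sham, the fold was 1.44 (adjusted p = 0.258).

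In unbound RNA Lyz2 read 17.5, 21.6 and 14.2 in sham, 56.2, 63.1 and 24.1 at day 2, 202, 132 and 383 at day 7, and 178, 161 and 1086 at day 14. It was the one member called at day 7 (3.60 ± 0.87, adjusted p = 0.0496), and it rose by 4.13 ± 0.87 at day 14 (adjusted p = 0.027, and 3.24 with adjusted p = 0.0139 without both libraries of the third mouse). The day 7 call was lost without any 1 of its 6 libraries (adjusted p = 0.0878 to 0.274), and the day 14 call without any 1 of the 3 sham libraries or the third day 14 unbound library alone (adjusted p = 0.074 to 0.323). At day 2 all libraries were above sham, with a fold of 1.31 (adjusted p = 0.325). Reads of Lyz2 could be split with its near copy Lyz1, which read 12.6 RPKM at most in any library.

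**Figure D2:**
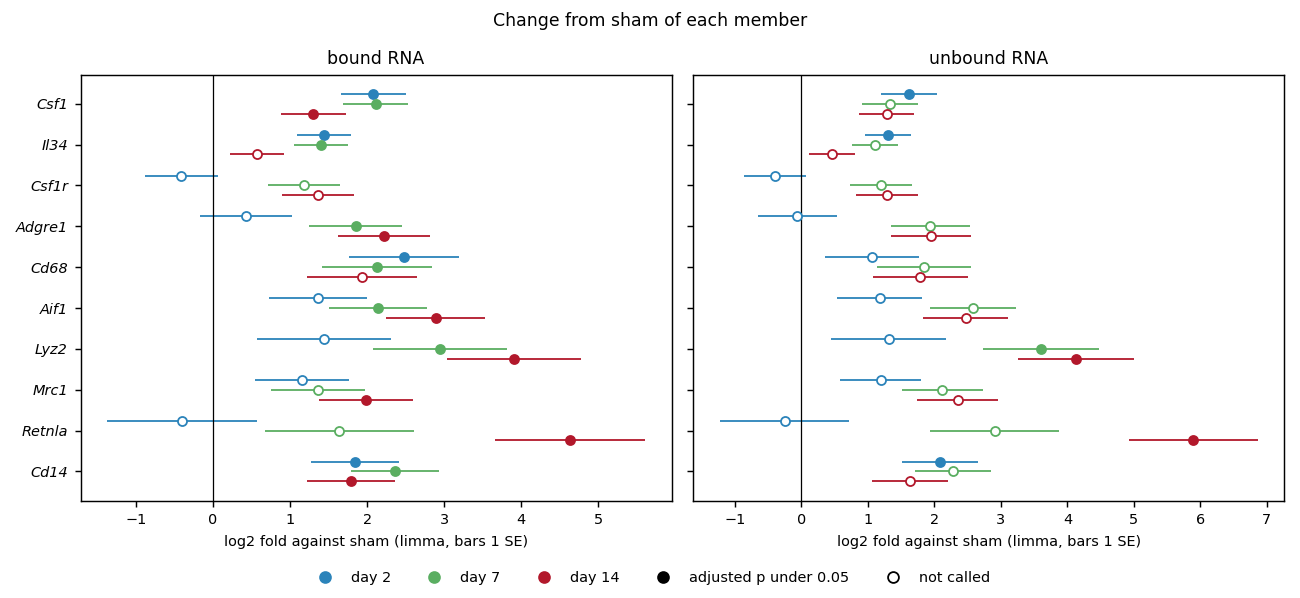
Change from sham of each member in bound (left) and unbound RNA (right), as the log2 fold fitted by limma with bars of 1 standard error, at day 2, 7 and 14; filled points passed an adjusted p of 0.05. Bound RNA held 4, 7 and 7 called members at day 2, 7 and 14, unbound RNA 3, 1 and 2, and none fell.

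Mrc1 rose at day 14 in bound RNA. It read 0.286, 0.391 and 0.0409 RPKM in sham, 1.05, 2.14 and 0.537 at day 2, 1.51, 0.817 and 1.92 at day 7, and 1.21, 0.768 and 10.2 at day 14. All injured libraries were above sham. The rise passed at day 14 (1.98 ± 0.61, adjusted p = 0.036) and not at day 2 (1.16, adjusted p = 0.184) or day 7 (1.36, adjusted p = 0.111). Without the third mouse the day 14 fold was 1.03 (adjusted p = 0.053), and the call was also lost without any 1 of the 3 sham libraries or the third day 14 bound library alone (adjusted p = 0.0661 to 0.161).

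In unbound RNA Mrc1 read 0.287, 0.464 and 0.206 in sham, 1.24, 1.74 and 1.13 at day 2, 2.47, 2.42 and 4.53 at day 7, and 2.33, 1.77 and 10.4 at day 14, again clear of sham throughout. Its folds were 1.19, 2.12 and 2.35 (adjusted p = 0.192, 0.0894 and 0.0583). With both libraries of the third mouse left out, the day 14 fold of 1.64 passed (adjusted p = 0.0458). With only the third day 14 unbound library left out, the same fold of 1.64 did not pass (adjusted p = 0.536).

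Retnla was nearly absent until day 7. Sham bound libraries read 0.0729, 1.15 and 0 RPKM and day 2 bound ones 0, 0.196 and 0.0953, and the inferred reads behind these were 1, 16 and 0 and then 0, 2 and 1. In sham unbound RNA it read 0.346, 0 and 0, from 4, 0 and 0 reads, and it was at 0 reads in all 3 day 2 unbound libraries. Levels then were 0.350, 3.18 and 4.05 in day 7 bound and 0.314, 7.10 and 14.1 in day 7 unbound RNA, where the first mouse of each stayed within the sham range.

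At day 14 every library was above every sham one: 4.91, 12.5 and 102 RPKM in bound and 12.7, 31.6 and 104 in unbound RNA. The 3 day 14 unbound libraries held 161, 374 and 1200 inferred reads of Retnla, against 4 in the 3 sham unbound libraries together. It rose by 4.63 ± 0.97 in bound (adjusted p = 0.00544) and 5.89 ± 0.97 in unbound RNA (adjusted p = 0.00547), and the rises without the third mouse were 3.43 (adjusted p = 0.0104) and 5.11 (adjusted p = 0.0123). With levels this near 0 in sham, these folds depend on the pseudocount: for bound RNA they were 6.06 with 0.1 and 3.93 with 1, and for unbound RNA 7.73 and 5.03. The unbound call was lost when only the third day 14 unbound library was left out (adjusted p = 0.0746). Day 7 did not pass in either fraction (1.64, adjusted p = 0.236 and 2.91, adjusted p = 0.153).

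Of the near copies of Retnla, Retnlb was at 0 in all libraries, and Retnlg, which is abundant in neutrophils, was highest at day 2 with 43.7 RPKM in the third unbound library and 2.96 at most at day 14. Retn, a fat cell gene, stayed at or under 0.873 RPKM. Among adipocyte markers Adipoq was at 0 in 14, Plin1 in 17 and Lep in 22 of the 24 libraries.

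Cd14 rose at each day in bound RNA. There it read 6.40, 5.59 and 9.90 RPKM in sham, 19.8, 35.2 and 27.4 at day 2, 27.0, 33.9 and 62.7 at day 7, and 20.1, 13.4 and 62.3 at day 14, with no injured library overlapping sham. It rose by 1.84 ± 0.57 (adjusted p = 0.0266), 2.36 ± 0.57 (adjusted p = 0.00598) and 1.79 ± 0.57 (adjusted p = 0.042). The day 14 fold without the third mouse was 1.15 (adjusted p = 0.0541). The day 2 call was lost without the first or second sham or the second or the third day 2 library (adjusted p = 0.0753 to 0.112), and that of day 14 without the first or second sham or the first or the third day 14 bound library (adjusted p = 0.071 to 0.163).

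In unbound RNA Cd14 read 4.61, 7.83 and 5.18 in sham, 21.5, 33.6 and 23.9 at day 2, 23.2, 22.1 and 51.2 at day 7, and 15.3, 7.21 and 57.8 at day 14, where the second mouse lay inside the sham range. It rose at day 2 by 2.08 ± 0.57 (adjusted p = 0.0171). That call was lost without the first or the third sham or the second day 2 library (adjusted p = 0.0595 to 0.0875). The folds of 2.28 at day 7 and 1.63 at day 14 did not pass (adjusted p = 0.0529 and 0.129). Without the third mouse the day 14 fold was 0.83 (adjusted p = 0.45).

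In all, bound RNA held 4 of 10 members called higher at day 2, where 13.3% of all tested genes were called higher, 7 at day 7 (15.2%) and 7 at day 14 (8.71%). Unbound RNA held 3 at day 2 (9.76% of all genes), 1 at day 7 (0.911%) and 2 at day 14 (0.984%). Refitted without the third day 14 mouse, 4 members were called in bound RNA, Adgre1, Aif1, Lyz2 and Retnla, where 11% of all genes were called higher, and 3 in unbound RNA, Lyz2, Retnla and Mrc1, where 0.576% were. None of these 3 passed when only the third day 14 unbound library was left out (adjusted p = 0.323, 0.0746 and 0.536). These counts moved with the fit. With a spread estimated from the compared libraries alone, the day 14 bound count was 0 (0.109% of all genes) and the day 7 unbound count 9 (12.4%). With 1 weight per library the day 7 unbound count was 10 (18.6%), and with no filter on low values it was 0 (0.157%) and the day 7 and day 14 bound counts were 3 (6.48%) and 3 (3.12%). The median fold of the members was 1.4, 1.98 and 1.96 in bound and 1.18, 2.03 and 1.87 in unbound RNA at day 2, 7 and 14, beside medians of all tested genes of 0.16, 0.13 and 0.18, and 0.20, 0.18 and 0.22. Rescaling the libraries by median ratios brought these 6 all-gene medians to between -0.03 and 0.01, a shift of up to 0.23 that the members' folds carry too.

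From day 7 to day 14 limma called 0 of 10 members in either fraction. At an unadjusted p under 0.05 there were 2 in bound RNA, Retnla higher (3.00) and Il34 lower (-0.82), and 1 in unbound RNA, Retnla (2.98), with adjusted p of 0.548, 0.714 and 1. In bound RNA the folds of Adgre1, Csf1r, Aif1, Lyz2 and Mrc1, between 0.18 and 0.96 with all mice, were between -0.45 and -0.23 without the third mouse, with 0 called in either fit. Of all genes 0.0% were called in bound and 0.00729% in unbound RNA.

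**Figure D3:**
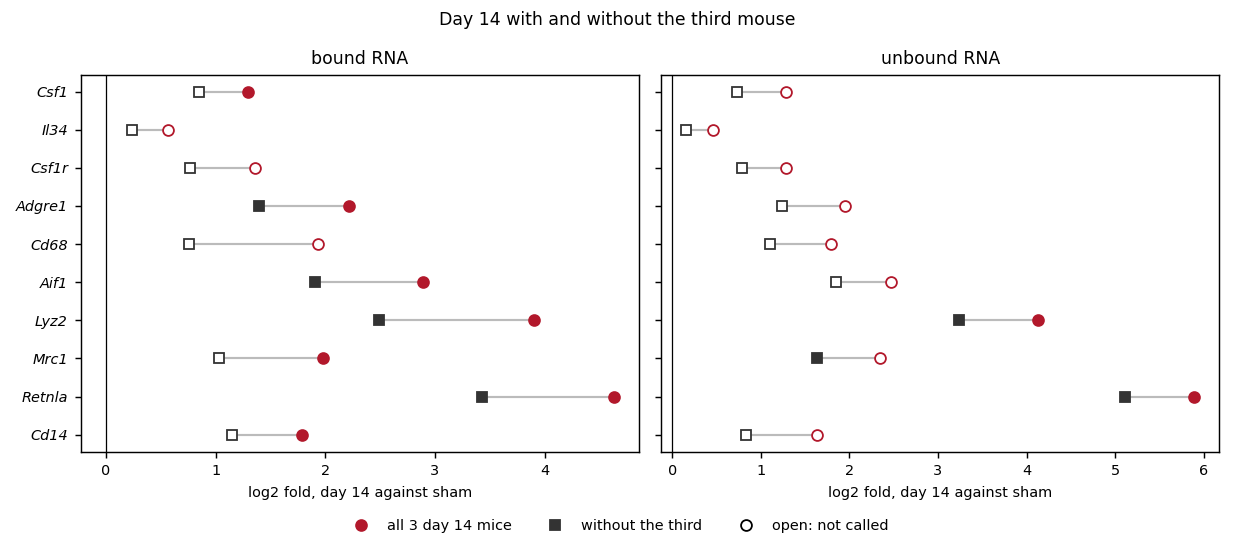
Fold of each member at day 14 against sham with all 3 mice (circles) and without the third mouse (squares), as log2 folds fitted by limma in bound and unbound RNA; filled symbols passed an adjusted p of 0.05. Every fold was smaller without that mouse, and Lyz2 and Retnla passed the test in both fractions either way.

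The third day 14 mouse had a higher level of all 10 members in both fractions than the mean of the other 2, and higher sums of the markers of several other cell types. Its Lyz2 was 18.6 times the mean of the other 2 in bound and 6.40 times in unbound RNA, and its Il34 was 1.97 and 1.83 times that mean. Lymphocyte markers summed to 71.2 RPKM in its bound RNA, against 4.5 and 4.69 in the other 2, and to 58.9 against 11.6 and 9.61 in its unbound RNA. Dendritic cell markers summed to 20.6 against 4.24 and 1.87 in bound RNA, stromal markers to 644 against 73.6 and 48.5, and neutrophil markers to 55.1 against 3.21 and 1.70. Proximal tubule markers in its unbound RNA summed to 2020 RPKM against 4440 and 4630. The part of these cell types in the day 14 results was not tested.

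Bound and unbound RNA of the same mouse were then compared, as the ratio of their RPKM. At sham 0 of 10 proximal tubule markers were called higher in bound RNA and 6 lower. The ratio thus does not tell which cells a member's RNA came from, and this source was not tested. Il34 was higher in bound RNA in 12 of 12 mice, with a ratio of 1.01 to 1.64 (median 1.19). Csf1 and Cd14 were each higher in 10 of 12, with median ratios of 1.23 and 1.19. Aif1 was lower in bound RNA in 12 of 12 mice, with a ratio of 0.205 to 0.850 (median 0.348). Cd68, Lyz2 and Mrc1 were each lower in 11 of 12, with medians of 0.573, 0.473 and 0.565, and Adgre1 in 10 of 12 (0.795). Csf1r was lower in 7 and higher in 5 mice (median 0.826), with a ratio of 0.636 to 1.67. Ratios of Adgre1 also lay on both sides of equality, at 0.0771 to 1.51. Retnla gave a ratio in 7 mice, since the others had 0 in unbound RNA, with a median of 0.396. No share of all genes on 1 side in as many mice is given here. Fractions apart were common: 22.4%, 11.1%, 18.7% and 7.02% of tested genes lay wholly higher in bound RNA at sham, day 2, 7 and 14. Wholly lower were 18.7%, 7.35%, 19.5% and 7.87%.

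**Figure D4:**
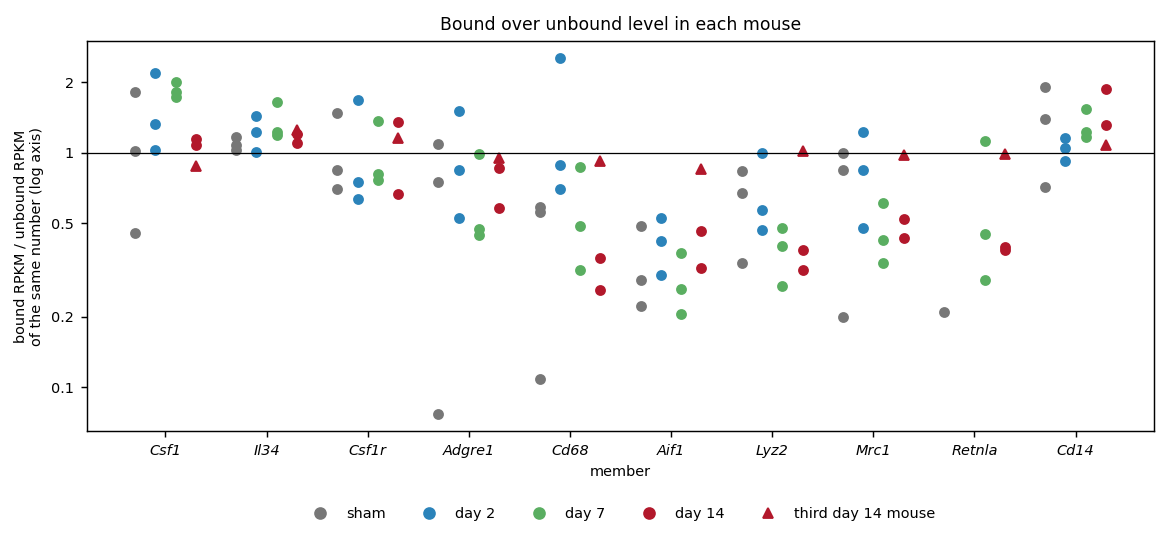
Ratio of bound to unbound RPKM in each mouse for each member, on a log axis, coloured by time, with the third day 14 mouse as a triangle and the line at equality; ratios with a 0 are not drawn. Il34 lay above the line in all 12 mice and Aif1 below it in all 12, and the share of all genes that do so is not given.

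Without a block, limma called 0 of 10 members between fractions at sham, day 2, day 7 or day 14, with 1, 0, 1 and 0 members at an unadjusted p under 0.05. Of all genes, 27.6%, 1.68%, 2.35% and 0.816% were called in either direction. With each mouse as a block, Aif1 was lower in bound RNA at sham (-1.37, adjusted p = 0.000857), at day 2 (-1.18, adjusted p = 0.0128) and at day 7 (-1.82, adjusted p = 0.000744). Cd68 was lower at sham (-1.21, adjusted p = 0.0264). Lyz2 (-1.42, adjusted p = 0.0124) and Mrc1 (-0.92, adjusted p = 0.0225) were lower at day 7.

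Csf1 went the other way at day 7, higher in bound RNA by 0.77 with the mouse block (adjusted p = 0.0436). Its 3 mice read 3.82, 4.92 and 6.14 in bound and 2.21, 2.45 and 3.40 RPKM in unbound RNA, and the fractions did not overlap. Of all tested genes, 18.7% were likewise wholly higher in bound RNA at day 7. Il34 did not pass between fractions at any time, with a largest fold of 0.42 at day 7 (adjusted p = 0.0985 with the block). In these blocked fits 18.3% of all genes were lower in bound RNA at sham, where 2 members were, 4.26% at day 2, where 1 was, and 7.11% at day 7, where 3 were. At day 7 4.28% were higher, with 1 member among them, and at day 14 2.62% were called in either direction, with 0 members called and 5 at an unadjusted p under 0.05.

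Whether the change from sham differed between fractions was tested by the interaction. Limma called 0 members at each day, with 0 at an unadjusted p under 0.05 at each, and 0.0%, 0.146% and 0.197% of all genes at day 2, 7 and 14. With the mouse block 0 were called too, with 1, 3 and 1 at an unadjusted p under 0.05. The widest difference was that of Cd68 at day 2, 1.42 ± 1 higher in bound RNA (adjusted p = 0.912). No member was shown to change by a different amount in the 2 fractions.

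The patterns of the members over the 24 libraries are described by Pearson's r and Spearman's rho of log2(RPKM + 0.5). No test was made, since libraries share mice, groups and fractions. Csf1 and Cd14 were closest to each other among pairs with a ligand (r = 0.92, rho = 0.93), followed by Il34 and Cd14 (r = 0.84, rho = 0.88) and Csf1 and Il34 (r = 0.82, rho = 0.84). Lyz2 correlated at r = 0.97 with Mrc1, 0.95 with Aif1 and 0.95 with Adgre1. The members did not part into clean sets. Cd68 was at r = 0.87 with Mrc1 and 0.84 with Aif1, but also at 0.73 with Cd14, 0.70 with Csf1 and 0.49 with Csf1r. Mrc1 was at 0.76 with both Cd14 and Csf1r. Csf1r was close to Adgre1 (r = 0.89, rho = 0.89) and far from its ligands, at r = 0.36 with Csf1 and 0.09 with Il34. Without the third day 14 mouse those 3 values were 0.81, 0.18 and -0.01, and that of Csf1 with Cd14 was 0.91.

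**Figure D5:**
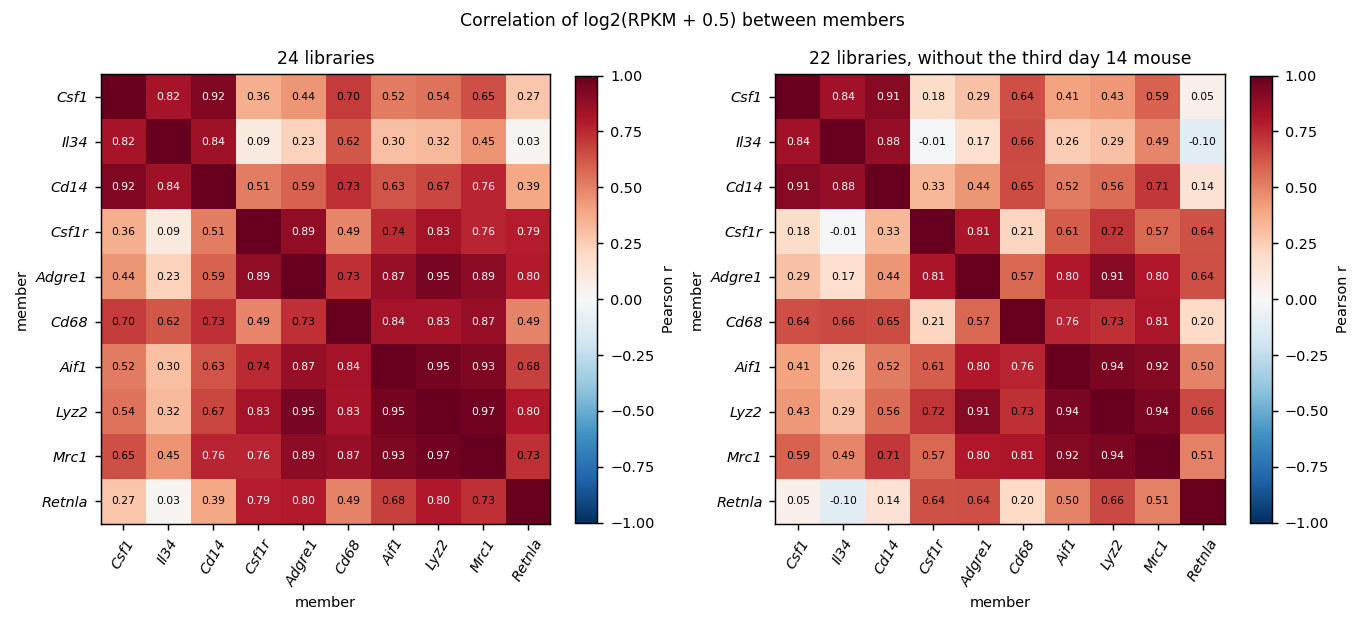
Pearson's r of log2(RPKM + 0.5) for each pair of members over all 24 libraries (left) and over 22 without the third day 14 mouse (right), from blue at -1 to red at 1. Csf1, Il34 and Cd14 correlated with each other at 0.82 to 0.92, and Il34 with Csf1r at 0.09.

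The named genes most like Csf1r over the 24 libraries were H2-Ab1 (r = 0.95), Serping1 (0.95), H2-Eb1 (0.94), Cd74 (0.93) and Fbln1 (0.92), which include chains and the invariant chain of MHC class II. Those most like Csf1 were Pdlim7 (0.97), Pdgfa (0.95), B4galnt1 (0.95), Cpne2 (0.94) and Egr1 (0.94). Il34 was matched by Akap12 (0.93), Mlkl (0.91), Ifitm10 (0.90), S100a6 (0.90) and Acsl5 (0.89), and Retnla by Ear2 (0.93), Lyz1 (0.91), Clec10a (0.91), Asgr2 (0.90) and Fbln1 (0.87). Fbln1, a matrix protein, was among the closest to both Csf1r and Retnla. For Retnla its r was 0.77 without the third day 14 mouse.

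Other macrophage and myeloid genes were counted from a list of 23, of which 21 were tested. Of these, 1, 6 and 7 rose in bound RNA at day 2, 7 and 14, and 0, 1 and 2 rose in unbound RNA, where 3, 16 and 18 had an unadjusted p under 0.05 in limma. None fell, and the median folds were 1, 1.49 and 1.95 in bound and 0.88, 2.18 and 2.19 in unbound RNA. Without the third mouse 6 rose in bound RNA at day 14, with a median of 0.89, and 3 in unbound RNA, with a median of 1.56. For this list and those below, the shares of all tested genes called higher at day 2, 7 and 14 serve for comparison with the called counts. They were 13.3%, 15.2% and 8.71% in bound and 9.76%, 0.911% and 0.984% in unbound RNA. Without the third mouse the day 14 shares were 11% and 0.576%. These shares are no base rate for the counts at an unadjusted p under 0.05. In unbound RNA 31.2%, 30.5% and 28.7% of all tested genes lay wholly above sham. The one gene at day 2 was Tyrobp, an adaptor of myeloid receptors (2.15, adjusted p = 0.0449), and the 2 in day 14 unbound RNA were Cd74 and Trem2, a lipid receptor that signals through Tyrobp (2.71, adjusted p = 0.044), with Tyrobp and Trem2 named after their values were seen. This Tyrobp call was lost without any 1 of 4 libraries (limma adjusted p = 0.0784 to 0.206). That of Trem2 was lost without any 1 of 5 (0.0639 to 0.431).

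Cd74, the invariant chain of MHC class II, read 199, 253 and 138 RPKM in sham bound RNA, 91.4, 170 and 52.6 at day 2, and 865, 782 and 1290 at day 7. The day 2 libraries overlapped sham and the day 7 libraries were all above it. Its fold was -1.02 at day 2 (adjusted p = 0.197), and it rose by 2.32 ± 0.55 at day 7 (adjusted p = 0.00547) and 2.44 at day 14 (adjusted p = 0.00811, and 1.68 with adjusted p = 0.0116 without the third mouse). In unbound RNA the folds were -1.63 at day 2, on the threshold (adjusted p = 0.05), 2.27 at day 7 (adjusted p = 0.0496) and 2.36 at day 14 (adjusted p = 0.044, or 0.0589 without the third mouse). The unbound day 7 call was lost without any 1 of its 6 libraries and that of day 14 without any 1 of 5, all but the second day 14 library (highest adjusted p = 0.289 and 0.422).

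The myeloid genes C1qc, Fcgr3 and Mpeg1 rose in bound RNA at day 7 and 14. C1qc, a chain of complement C1q, rose by 2.15 (adjusted p = 0.036) and 2.50 (adjusted p = 0.0266). Fcgr3, an antibody receptor, rose by 2.15 (adjusted p = 0.0298) and 2.61 (adjusted p = 0.0181). Mpeg1, a pore-forming protein of macrophages, rose by 2.12 (adjusted p = 0.0309) and 2.38 (adjusted p = 0.0267). At day 7 each call was lost without the first or the third sham or any 1 day 7 library, and that of C1qc also without the second sham library (highest adjusted p = 0.0947 for C1qc, 0.087 for Fcgr3 and 0.0988 for Mpeg1). At day 14 each was lost without the first sham or the third day 14 bound library, and those of C1qc and Mpeg1 also without the third sham library (highest adjusted p = 0.114 for C1qc, 0.0678 for Fcgr3 and 0.115 for Mpeg1). With both libraries of the third mouse left out the day 14 folds were 1.31 (adjusted p = 0.048) for C1qc, 1.52 (adjusted p = 0.0217) for Fcgr3 and 1.28 (adjusted p = 0.0375) for Mpeg1.

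Genes of alternative activation were called at different days. Of 16, 12 were tested, and 2, 1 and 2 rose in bound RNA at day 2, 7 and 14. These bound counts were near the shares of all tested genes called higher, 13.3%, 15.2% and 8.71%. In unbound RNA 4, 0 and 0 rose, with 4, 5 and 7 at an unadjusted p under 0.05. The median folds were 0.52, 0.58 and 0.65 in bound and 0.23, 0.85 and 0.92 in unbound RNA. Without the third mouse the day 14 bound count was 1 higher, Clec10a, and 1 lower, Tgm2 (-1.14), a crosslinking enzyme.

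Arg1 (arginase 1) read 0.118, 0 and 0 RPKM in sham bound RNA and 2.56, 8.74 and 14.9 at day 2. It rose by 3.82 ± 1 there (adjusted p = 0.0105, or 0.0602 without the third day 2 library) and by 4.04 in unbound RNA (adjusted p = 0.00948, or 0.0501 and 0.0599 without the second or the third day 2 library). Chil3, a chitinase-like protein, read 0.294, 0.0264 and 0.0497 RPKM in sham bound and 4.97, 7.18 and 4.22 in day 2 bound RNA. It rose by 3.25 ± 0.36 (adjusted p = 5.00e-06), and by 3.52 in unbound RNA (adjusted p = 5.63e-06). At day 14, when Retnla was high, Chil3 read 0, 0.0583 and 0.675 RPKM in bound RNA, with a fold of 0.17 (adjusted p = 0.78). Arg1 then read 0.0963, 0.129 and 11.7, high in the third mouse alone, with a fold of 1.63 (adjusted p = 0.28).

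Clec10a, a lectin, rose at day 14 in bound RNA by 1.77 ± 0.42 (adjusted p = 0.0102, and 1.14 with adjusted p = 0.0113 without the third mouse). Ccl17, a chemokine, rose there by 2.76 (adjusted p = 0.0241). That call was lost without the third mouse (1.56, adjusted p = 0.0788) and without the first or the third sham or the third day 14 bound library (adjusted p = 0.0615 to 0.102). Named after their values were seen, Irf4, a transcription factor, rose at day 7 in bound RNA (1.2, adjusted p = 0.0398), and Msr1, a scavenger receptor (2.14, adjusted p = 0.0154), and Klf4, a transcription factor (1.25, adjusted p = 0.0431), rose at day 2 in unbound RNA. The Irf4 call was lost without any 1 of 4 libraries (limma adjusted p = 0.0754 to 0.175). That of Msr1 was lost without any 1 of 2 (0.0525 to 0.0695) and that of Klf4 without any 1 of 5 (0.053 to 0.174).

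Classical activation genes numbered 13, of which 7 were tested, since Nos2, Tnf, Il6, Il12b, Cd80 and Ptgs2 were under the filter. Of the 7, 1, 1 and 2 rose in bound and 1, 1 and 2 in unbound RNA at day 2, 7 and 14, with median folds of 0.31, 0.60 and 1.04 and 0.63, 0.96 and 1.47. The day 14 counts were 2 and 1 without the third mouse. Cxcl10, a chemokine of the interferon response, rose in bound RNA at day 7 (3.15 ± 0.58, adjusted p = 0.00104) and day 14 (2.42, adjusted p = 0.0108, or 0.0555 without the first sham library). In unbound RNA it rose by 2.98 at day 7 (adjusted p = 0.0152), a call lost without the second or the third sham or the third day 7 library (highest adjusted p = 0.139). It rose by 2.47 at day 14 (adjusted p = 0.044, or 0.126 without the third mouse), a call lost without any 1 of 5 libraries, all but the second day 14 one (highest adjusted p = 0.385).

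Socs3, a brake on cytokine signalling, rose at day 2 by 2.42 in bound (adjusted p = 0.0203) and 2.46 in unbound RNA (adjusted p = 0.0225). The bound call was lost without the second sham or second day 2 library (highest adjusted p = 0.0758), and the unbound one without the second or the third sham or second or the third day 2 library (highest adjusted p = 0.101). Irf5, a transcription factor of inflammatory macrophages, rose by 1.61 at day 14 in bound RNA (adjusted p = 0.0161, or 0.0552 and 0.0561 without the first or the third day 14 library). Cxcl9, a relative of Cxcl10, rose by 2.20 at day 14 in unbound RNA (adjusted p = 0.044), a call lost without any 1 of 5 libraries, all but the second day 14 one (highest adjusted p = 0.422). With both libraries of the third mouse left out its fold was 1.45 (adjusted p = 0.0308).

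Genes of Csf1r signalling and of other colony stimulating factors numbered 15, with 13 tested. Of these 2, 0 and 0 rose in bound RNA at day 2, 7 and 14, with 3, 0 and 3 at an unadjusted p under 0.05 in limma, and 2, 0 and 1 in unbound RNA, with 4, 4 and 9. The median folds were 0.35, 0.59 and 0.62 in bound and 0.52, 0.72 and 1.18 in unbound RNA. Without the third mouse the day 14 bound count was 0 higher and 2 lower, the phosphatase Ptpn6 (-0.90) and the phospholipase Plcg2 (-1.44), and the unbound count was 0.

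The 2 genes that rose at day 2 were Sdc1, a syndecan known to bind Il34, and Csf3r, the receptor of granulocyte colony stimulating factor. Sdc1 read 1.25, 2.00 and 1.91 RPKM in sham bound and 6.91, 14.0 and 9.03 in day 2 bound RNA, with no overlap. It rose by 2.20 ± 0.35 in bound (adjusted p = 0.000188) and by 2.40 in unbound RNA (adjusted p = 9.18e-05), and passed without any 1 library in both. It also rose by 1.46 in unbound RNA at day 14 (adjusted p = 0.045, or 0.0626 without the third mouse), a call lost without any 1 of 5 libraries, all but the second day 14 one (highest adjusted p = 0.422). Csf3r, which is also on the neutrophil list, rose at day 2 by 2.00 (adjusted p = 0.0187, or 0.0551 and 0.121 without the first sham or second day 2 library) and 2.04 in unbound RNA (adjusted p = 0.0205, highest 0.137 without the second day 2 library, and lost also without the first or the third sham or the third day 2 library). Csf2ra, a chain of the receptor of another colony stimulating factor, and the adaptor Sos1 did not pass in any of the 6 comparisons, with folds of 0.62 to 1.98 and 0.12 to 0.56.

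Partners of Cd14 in lipopolysaccharide sensing numbered 13, with 11 tested. Of these 2, 2 and 2 rose in bound RNA at day 2, 7 and 14, and 0, 0 and 0 in unbound RNA, with 4, 6 and 6 at an unadjusted p under 0.05 in limma. Of all tested genes, 13.3%, 15.2% and 8.71% rose in bound RNA at these days. The median folds were 0.56, 0.69 and 0.48 in bound and 0.56, 0.64 and 0.65 in unbound RNA, and without the third mouse the day 14 bound count was 1. Ly96 (MD-2), which holds the lipid for the receptor Tlr4, rose in bound RNA by 1.60 ± 0.29 at day 2 (adjusted p = 0.000568), 1.28 at day 7 (adjusted p = 0.00387) and 1.56 at day 14 (adjusted p = 0.00251, and 1.29 with adjusted p = 0.00591 without the third mouse). It passed without any 1 library at each day. Its unbound folds were 0.66, 0.64 and 0.24 (adjusted p = 0.124, 0.291 and 0.65).

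Tlr2, a receptor of bacterial lipoproteins, rose in bound RNA at day 7 by 2.46 (adjusted p = 0.00708) and at day 14 by 1.87 (adjusted p = 0.0464, and 1.32 with adjusted p = 0.115 without the third mouse). The day 14 call was lost without any 1 of 5 libraries, all but the second day 14 one (adjusted p = 0.0659 to 0.155). Tirap, an adaptor named after its value was seen, was the second gene at day 2 (1.13, adjusted p = 0.0203), lost without the first or second sham or second or the third day 2 library (adjusted p = 0.0628 to 0.126). Ly86 and Lbp, the lipopolysaccharide-binding protein, did not pass in any of the 6 comparisons.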

How the data were processed

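Bulk RNA-seq libraries, 24 in all, were made from ribosome-bound and unbound RNA of 12 mice in 8 groups of 3. The authors deposited 1 table of RPKM values per gene. Reads were aligned with STAR 2.0.4b and counted with featureCounts 1.4.5 of Subread, and edgeR was used, per the submitters' processing notes. The genome build and use of strand are not given in the sources used here. In all, the table's 41831 lines held 40750 genes after 1081 identical repeated lines were dropped. Depth was inferred from the spacing of low values with GENCODE M21 gene lengths: at the inferred depth 73.8 to 78.2% of values up to 50 reads were whole within 0.02 reads, where chance gives 4%. The median was 20230000 reads a library.

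Genes reaching 1 RPKM in 3 or more libraries were fitted with limma 3.58.1 in R 4.3.3 on log2(RPKM + 0.5), with 8 group means, a trend in the empirical Bayes step and Benjamini-Hochberg adjustment over 13721 genes. The 17 comparisons were each day against sham in each fraction, successive days in each fraction, bound against unbound at each time, and the interaction of day and fraction. The fit was tested on simulated data with normal spread and planted changes. These held no outlying mouse, so that test cannot show how the third day 14 mouse moves the calls. The labels do not say that a bound and an unbound library of the same number come from 1 mouse. The deviations from the group means of same-numbered libraries of a time correlated at 0.268 to 0.67 in all 12 pairs, against -0.598 to 0.309 for other numbers. Deviations within a group sum to 0, so positive values for same numbers tend to push the others below 0. Same-numbered libraries were taken as paired, which remains an inference. The mouse was used as a block beside the comparisons of fractions. Replicates are called biological in the labels.

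The members and the gene lists were chosen with earlier results of these data known. All 10 members are named. Of each pathway list the 4 tested genes with the smallest p over the comparisons with sham are named. Alternatives changed the pseudocount, filter, scaling, variance model, samples fitted, block and libraries. Promoters came from RefSeq (GRCm38.p6), where 6 members had an entry that could be shown. Adgre1 and Il34 had none, and those of Csf1r and Cd14 are not reported here.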

Additional observations from a re-analysis of the deposited data

How the results depend on the processing

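The precision is limited by 3 mice a group and, for Retnla before day 7, by at most 16 inferred reads a library. Over the alternatives to the 17 folds of the 10 members, 2729 stayed on the same side of the threshold, 103 were newly called and 110 lost the call. The sign differed in 181 of the 2729, over 61 folds that were called in neither fit, 5 of these alternatives being against sham. In 1 more the sign turned with a call: Csf1r in bound against unbound RNA at day 2 was 0.84 with 1 weight per library (adjusted p = 0.0247), -0.07 with no change of setting, and -0.57 to 0.31 with 1 library left out. The weighted fit stopped before full convergence. Under the stricter filter Retnla was not tested.

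The number of members called in bound RNA against sham was 4 at day 2 (7 with library weights, and 1 to 4 with 1 library left out). At day 7 it was 7 (3 with no filter, 3 to 6 with 1 library left out). At day 14 it was 7 (3 with no filter, 0 with a fit of the compared libraries alone, 4 without the third mouse, 3 to 9 with 1 library left out). In unbound RNA it was 3 at day 2 (5 with weights, 7 with the compared libraries alone, 0 to 3 with 1 left out). At day 7 it was 1 (3 with a pseudocount of 0.1, 0 with 1, 0 with no filter, 3 with median-ratio scaling, 0 with quantile normalization, 0 with a robust fit without trend, 10 with weights, 9 with the compared libraries alone, 0 with any library left out). At day 14 it was 2 (1 with no filter, 1 with the stricter filter, 9 with weights, 0 with the compared libraries alone, 3 without the third mouse, 0 to 5 with 1 left out). From day 2 to day 7 it was 1 in bound RNA (0 with no filter, 2 with weights, 0 with the compared libraries alone, 0 to 1 with 1 left out) and 0 in unbound RNA (1 with a pseudocount of 0.1, 2 with median-ratio scaling, 2 with quantile normalization, 5 with weights, 3 with the compared libraries alone, 0 to 1 with 1 left out). From day 7 to day 14 weights gave 2 in each fraction. Between fractions the count was 0 at each time; weights gave 1, 2, 4 and 4 at sham, day 2, 7 and 14, the compared libraries alone gave 1 at sham and 1 at day 7, and leaving out 1 library gave 0 to 1 at day 14. The interactions stayed at 0 members throughout. In unbound RNA at day 7 a pseudocount of 0.1 called 1.39% of all genes higher and median-ratio scaling 1.02%. With no filter the shares at day 7 and 14 were 6.48% and 3.12% in bound and 0.157% and 0.173% in unbound RNA. For fits with 1 library left out, and for other settings between times or fractions, no shares are given in this paragraph. Those counts are therefore not a result about the members. Where a setting moved a count, the cause was not tested.

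With the mouse as a replicate block the counts between fractions were 2, 1, 4 and 0. Between times, mice that share only a number were also fitted with that number as a replicate block, which gave 3, 3 and 1 members against sham in bound RNA (5.95%, 5.41% and 0.685% of all genes were called higher) and 3, 5 and 5 in unbound RNA (16.6%, 2.22% and 4.07%) at day 2, 7 and 14, 0 in bound and 3 in unbound RNA from day 2 to day 7, and 0 from day 7 to day 14. Same-numbered libraries of different times correlated at -0.3675 to 0.3692. All 3 pairs were above 0.1 only between the day 7 and day 14 bound libraries (0.1348, 0.1663 and 0.1449), and there the block changed no call.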
